A study of Mus musculus with 18 samples.

Results

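Vascular endothelial growth factor (VEGF) and angiopoietin signalling was followed in single-cell transcriptomes of mouse bone marrow (BM) through 10 genes of the 20275 in the deposited matrix. They were taken by name and comprise 4 secreted ligands (Vegfa, Vegfc, Angpt1 and Angpt2) and 6 receptors (Kdr, Flt1, Flt4, Nrp1, Tek and Tie1). All mice were of the C57B6/J strain, with no treatment or allele in the labels, at embryonic day 16.5 (E16.5), E18.5, postnatal day 0 (P0) or adult age. Lineage-negative Kit+ hematopoietic progenitors (HPs) and CD45- Ter119- stroma were sorted from the same stages, each library coming from the pooled BM of several animals. HPs at E16.5 were represented by 2 libraries and every other stage and compartment by 1, and the experiments were not repeated, so that stage and library cannot be told apart.

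VEGFA is the principal driver of blood vessel growth and acts through the receptor tyrosine kinase VEGFR2, encoded by Kdr. VEGFC acts mainly on VEGFR3 (Flt4), which marks lymphatic vessels and, in BM, the sinusoids. Angiopoietin 1 activates the endothelial receptor TIE2 (Tek) and stabilizes vessels, whereas angiopoietin 2 opposes it in many settings. In adult BM these ligands come from perivascular stromal cells and from blood cells, and sinusoidal recovery after injury depends on VEGFR2.

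The 4 stromal libraries held 6267 to 14084 cells and the 5 HP libraries 560 to 6208 cells, with a median of 6747 to 23291.5 unique molecular identifiers (UMIs, counted transcripts) per cell. Expression is given as CPM, the share of a gene among the UMIs on a scale of 1e+06, of the UMIs summed over the cells of a deposited cluster, with the exact Poisson 95% interval in parentheses, and shares carry exact Clopper-Pearson 95% intervals. These intervals cover counting error only. Levels are compared between cell groups within a gene, not between genes, because 3′ counts are not scaled between transcripts. A barcode sequence was shared with a cell of another library by 2472 cells, but only 1 barcode was common to both E16.5 HP libraries. The E16.5 HP libraries differed in content, since cells coded as T cells made up 3.21% of replicate 1 and 45.1% of replicate 2.

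Receptor levels depend on which cells are endothelial, so the deposited endothelial codes were checked first. ECs numbered 71 at E16.5 (0.863% of stromal cells), 94 at E18.5 (1.42%) and 223 at P0 (1.58%), and the adult held 400 AECs and 194 SECs (9.48% together). All 8 pan-endothelial markers were detected in each of these 5 groups, with summed levels of 4462 to 8721 CPM. At least 30 antibody tags of CD31, an endothelial surface protein, were counted in 69 of 71, 76 of 94, 180 of 223 and 534 of 594 endothelial cells, against 0.229% to 3.40% of all other stromal cells. Arterial markers summed to 838 CPM in AECs and 148 CPM in SECs, and sinusoidal markers to 1140 and 3780 CPM. Ccl21a, a lymphatic endothelial chemokine, led the genes of AECs and was the third leading gene of ECs at E18.5 and at P0, while Mrc1 and Stab2 led those of SECs. The 4 lymphatic markers summed to 17.2, 94.6 and 271 CPM in ECs at E16.5, E18.5 and P0, 188 CPM in AECs and 97.6 CPM in SECs, and their part in the Flt4 and Vegfc values was not tested. The fetal and neonatal ECs were not divided into these types by the deposited codes. Chondrocyte markers summed to 3886, 2609 and 9488 CPM in ECs at E16.5, E18.5 and P0, 2251 in AECs and 1149 in SECs, and their part in the endothelial values was not tested.

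Sequence upstream of one receptor and one ligand is shown, Kdr because most of its stromal transcripts were endothelial and Vegfa, its ligand, because few were. Each run has 240 bases and ends 10 bases before the annotated start in RefSeq (GRCm38.p6). Capitals mark GGAA or TTCC, the core letters bound by ETS factors, searched on both strands. The Kdr window is chr5:75978466-75978705 and the Vegfa window is chr17:46032388-46032627, both on the minus strand.
Kdr: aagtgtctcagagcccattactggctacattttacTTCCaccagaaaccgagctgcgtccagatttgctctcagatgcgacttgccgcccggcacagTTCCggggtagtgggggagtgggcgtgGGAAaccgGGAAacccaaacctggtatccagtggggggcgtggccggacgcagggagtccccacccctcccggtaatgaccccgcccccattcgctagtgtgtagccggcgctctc
Vegfa: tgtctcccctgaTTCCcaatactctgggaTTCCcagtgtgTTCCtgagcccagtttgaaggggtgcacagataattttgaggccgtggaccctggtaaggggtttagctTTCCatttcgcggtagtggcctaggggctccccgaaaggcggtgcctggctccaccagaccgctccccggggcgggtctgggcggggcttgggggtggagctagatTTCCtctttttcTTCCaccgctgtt
The Kdr window held 4 matches, and 30.5% of 32851 promoter windows held at least 4. The Vegfa window held 6, and 7.36% of windows held at least 6. ACGTG and GCGTG, the core letters of hypoxia response elements, were also searched on both strands and matched 0 times in this Vegfa window, whereas 37.4% of all windows held at least 1 match of either. The window of the other Vegfa start listed in RefSeq held 2 matches of these letters and 1 of GGAA, and the Kdr window held 2 matches of GCGTG. The whole Kdr gene lies at chr5:75932827-75978458 and Vegfa at chr17:46016993-46032369.

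Among the ligands, Vegfa lay mostly outside the endothelium. In the 4 stromal libraries, from E16.5 to the adult, its level over all cells was 34.6, 60.4, 41.4 and 49.5 CPM. Clusters whose deposited code is C with a number (C codes) held 65.0%, 76.5%, 65.1% and 42.0% of its stromal UMIs. Its level over C codes was 41.9, 65.7, 46.9 and 62.7 CPM, so these shares depend largely on how many stromal UMIs C codes held. At E16.5 the 3 highest clusters were C4, at 50.96 CPM (46.8 to 55.4), C2 at 50.1 and C3 at 49.7, whose intervals overlapped. At E18.5 C6, C2i and C2ii led with 86.4, 84.7 and 82.8 CPM, again with overlapping intervals. At P0 a cluster led by pigment cell genes (UD3, Tyrp1 and Dct) had 157 CPM from only 39 UMIs, and a cluster led by Oprk1 and Galnt9 (UD4) had 143 CPM. In the adult, CXCL12-abundant reticular cells (CARs) stood above every other stromal cluster at 193 CPM (178 to 209), ahead of C10 at 70.8 and the perivascular P4 at 58.3. Endothelial codes held between 0.247% and 3.19% of the stromal Vegfa UMIs.

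Vegfc, the lymphatic growth factor, had a different distribution, but it too lay mostly outside the endothelium. Endothelial codes held 1.97%, 13.0%, 10.3% and 15.3% of its stromal UMIs from E16.5 to the adult. Clusters whose deposited code is F with a number held 72.2%, 61.7%, 66.5% and 43.3%. At E16.5 the highest clusters were the cluster F6 with 16.7 CPM (11.8 to 22.9), F4 with 11.5 and ECs with 9.19. ECs led at E18.5 with 62.7 CPM (47.8 to 80.9) and at P0 with 40.1 CPM (32.6 to 48.9). In the adult, CARs had 220 CPM (203 to 237) and held 35.8% of the stromal UMIs of Vegfc, followed by AECs at 104 CPM (91.8 to 118) and F12 at 39.4. SECs had 16.7 CPM. The level of Vegfc across the 5 endothelial groups ran in the same order as the summed CAR markers in those groups, which were 331, 1325, 975, 2538 and 563 CPM at E16.5, E18.5, P0, AECs and SECs. Most of that sum was Cxcl12, while Adipoq, at 2177 CPM in CARs, was 0 in ECs at the 3 earlier stages, 5.82 CPM in AECs and 24.3 CPM in SECs. Cells coded CARs were present only in the adult library. The part of CAR RNA in the endothelial Vegfc values was not tested.

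Angpt1, the TIE2 agonist, was at 11.3, 8.04, 11.4 and 15.4 CPM over the 4 stromal libraries. Its highest clusters were UD1 in the E16.5 library with 42.2 CPM (27.8 to 61.4), F3i in the E18.5 library with 14.5 CPM (12.4 to 16.8) and UD4 in the P0 library with 121 CPM (99.7 to 146). CARs led in the adult with 160 CPM (146 to 175) and 33.9% of the UMIs, and the cluster F8, led by Ccl8 and Cyp2f2, followed with 41.7 CPM and 42.8% of the UMIs. Endothelial cells held at most 1.20% of the stromal Angpt1 UMIs. At E16.5 they held 0 of 1323, with an exact upper limit of 0.278%.

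Angpt2, the context-dependent antagonist, was highest at every stage in a cluster with pericyte and smooth muscle markers. These clusters, F4 at E16.5, P2 at E18.5 and P0, and P4 in the adult, had Myh11 among their leading genes and all 6 pericyte and smooth muscle markers, which summed to 2501, 7270, 8560 and 16435 CPM, and so are called pericyte and smooth muscle-like. Angpt2 was at 36.7 (30.9 to 43.3), 38.4 (30.1 to 48.3), 51.1 (43.9 to 59.1) and 55.9 CPM (45.1 to 68.4) in them. F4, with the lowest marker sum, also had Ccl7, Ccl11 and Sele among its leading genes, so the 4 clusters need not be the same kind of cell. Schwann-coded cells were among the 3 highest clusters at E16.5, E18.5 and P0, with 19.3, 20.8 and 17.2 CPM. In the adult, CARs followed at 32.7 CPM and AECs at 22.0 CPM.

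**Figure D1:**
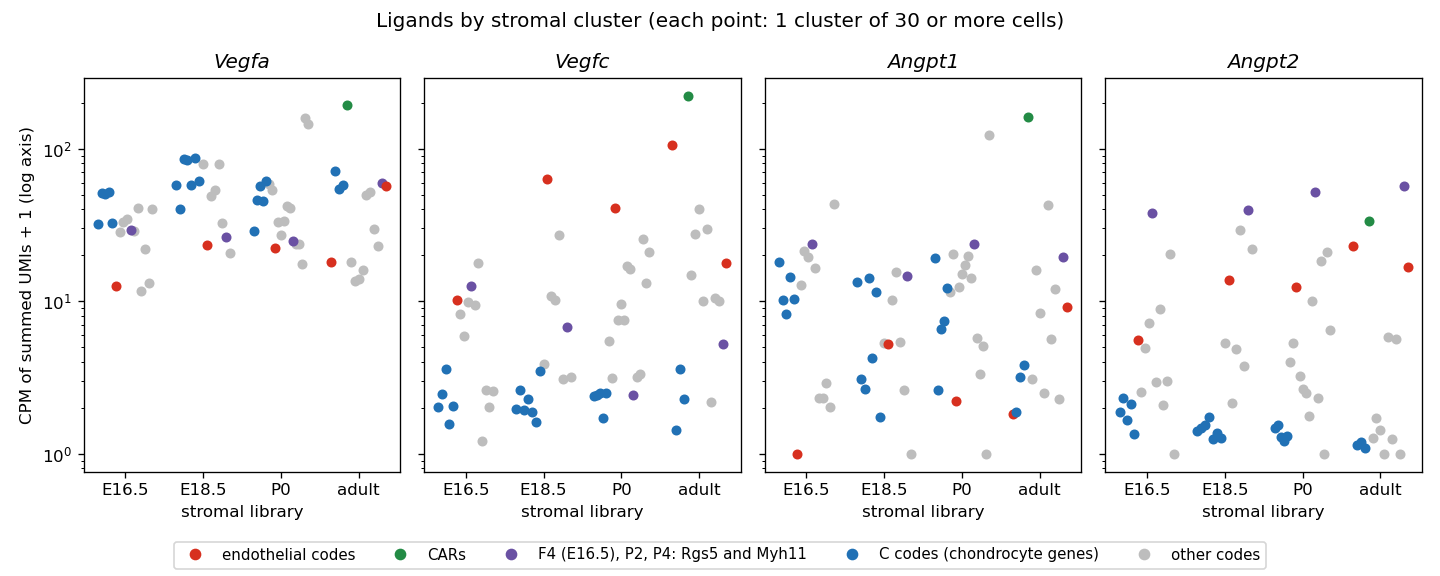
CPM + 1 of the 4 ligands (log axis) in each stromal cluster of at least 30 cells, by library, with endothelial codes, CARs, the pericyte and smooth muscle-like clusters and C codes coloured. CARs are the highest adult point for Vegfa, Vegfc and Angpt1, and the pericyte and smooth muscle-like cluster is the highest point for Angpt2 in each library.

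Kdr, Flt1, Flt4 and Tie1 had most of their stromal UMIs in endothelial codes at every stage, whereas Tek had most of them there only in the adult and Nrp1 at none. For Tie1, the orphan partner of TIE2, endothelial cells held 98.3%, 93.6%, 89.6% and 93.2% of its stromal UMIs from E16.5 to the adult, the highest share of the 6 receptors at every stage but the adult. For Kdr the shares were 66.5%, 86.6%, 80.7% and 95.3%, for Flt1, which encodes VEGFR1, 66.7%, 66.6%, 75.9% and 93.8%, and for Flt4 63.5%, 77.8%, 87.9% and 97.0%. For Tek they were 25.4%, 42.8%, 37.0% and 65.7%. For Nrp1, a co-receptor of VEGF and semaphorins, they were 2.96%, 10.7%, 8.92% and 32.3%. Endothelial cells contributed 0.744%, 0.836%, 1.25% and 4.64% of all UMIs in these libraries, so a share of stromal UMIs depends on the number of endothelial cells as well as on the level in each. The 6 receptors together had 15.3%, 31.7%, 30.6% and 65.1% of their stromal UMIs in endothelial cells. Nrp1 supplied 4497 of these 5797 UMIs at E16.5, and without it the other 5 receptors had 58.1%, 72.6%, 73.1% and 91.0% there.

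**Figure D2:**
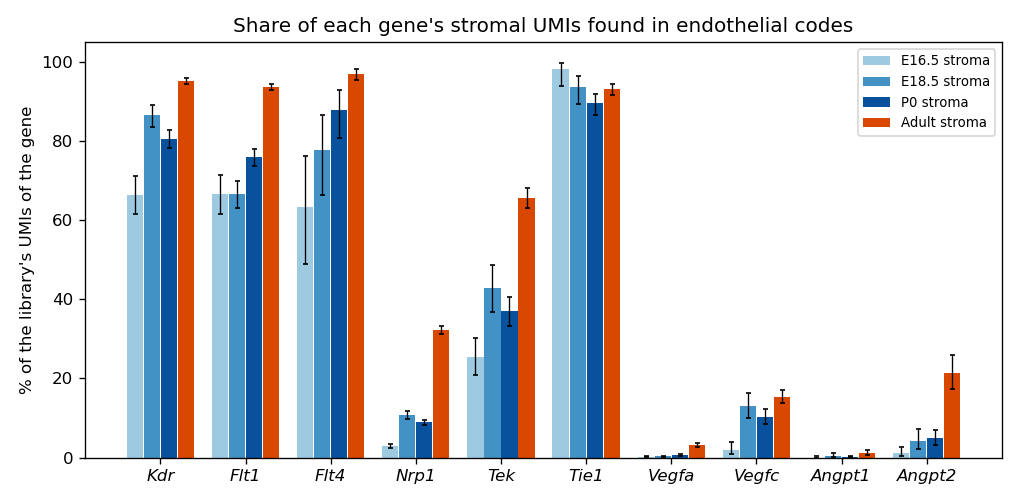
Share of each gene's stromal UMIs (%) that lay in endothelial codes, one bar per stromal library, with exact Clopper-Pearson 95% intervals. Kdr, Flt1, Flt4 and Tie1 stand between 63.5% and 98.3%, Tek between 25.4% and 65.7%, Nrp1 between 2.96% and 32.3%, and the ligands at 21.4% or below.

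Within endothelial cells all 6 receptors were measured in every group. Kdr was at 303 CPM in E16.5 ECs (268 to 342), 534 in E18.5 ECs (488 to 583), 397 in P0 ECs (372 to 423), 729 in AECs (696 to 764) and 956 in SECs (912 to 1000), and none of these intervals overlapped. Flt1 followed as 292, 546, 503, 936 and 772 CPM, and the E18.5 and P0 intervals overlapped. Flt4 was at 37.9, 59.5, 44.6, 48.6 and 285 CPM, so that SECs stood apart from 4 overlapping groups. Nrp1 was at 153, 428, 298, 804 and 491 CPM, and Tie1 at 131, 218, 197, 372 and 290 CPM. Tek varied least, at 103, 129, 103, 202 and 213 CPM.

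At least 1 of the 6 receptors was seen in 97.2%, 92.6%, 91.0% and 99.8% of endothelial cells from E16.5 to the adult. All 6 were seen in the same cell in 49.5% of SECs (42.2% to 56.7%) and 10.3% of AECs (7.46% to 13.7%), whose median depth was 7118 and 4520.5 UMIs. After each cell was thinned to 1000 UMIs, which left out 0, 11, 26 and 11 cells, Kdr was seen in 25.4%, 43.4%, 31.0% and 52.5% of endothelial cells, and in at most 0.238% of thinned HP cells of any library. Without thinning the endothelial shares were 88.7%, 83.0%, 74.9% and 88.0%.

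**Figure D3:**
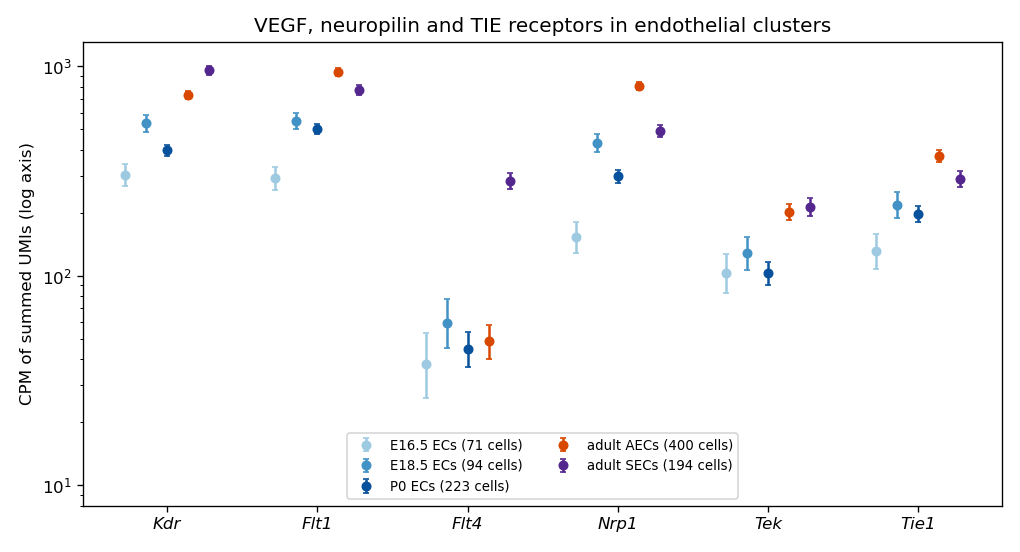
CPM of summed UMIs (log axis) of the 6 receptors in ECs at E16.5, E18.5 and P0 and in adult AECs and SECs, with exact Poisson 95% intervals. Flt4 in SECs, at 285 CPM, lies above the other 4 groups, which lie between 37.9 and 59.5 CPM.

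Endothelial groups were set against each other with a size rule, at least 2-fold with 50 UMIs in the higher group, because 1 library per stage allowed no test. A gene that met the minimum in 1 group only could enter only on the side where it was higher. Between E16.5 and E18.5, 7 members reached the count minimum, and Vegfc and Nrp1 were higher at E18.5, where 8.49% of 3087 genes were (10.2% passed the rule in either direction). Vegfc went from 9.19 to 62.7 CPM (ratio 6.82, 3.25 to 16.5) on only 8 UMIs at E16.5, so that it met the minimum through E18.5 alone, as did Flt4, and Nrp1 from 153 to 428 CPM (ratio 2.80, 2.30 to 3.44). With endothelial cells taken by CD31 tags, 5 members were higher, Kdr, Flt1 and Tie1 in addition, where 9.39% of genes were. Of the 29 other pathway genes, 11 had enough UMIs and 3 were higher: Ptprb, the phosphatase that restrains TIE2, Epas1, a hypoxia-inducible factor, and Apln, an endothelial tip cell gene. Between E16.5 and P0, 1 of 8 members passed the rule, Vegfc (ratio 4.36, 2.13 to 10.4), which like Vegfa and Flt4 met the minimum through P0 alone, where 11.3% of 4867 genes were higher and 0.986% lower at P0 (12.3% in either direction). Without cells that had a UMI of the leukocyte gene Ptprc or the globin gene Hbb-bs, 2 members were higher, Vegfa and Vegfc, where 12.0% of genes were. Of the pathway genes 4 of 15 were higher, namely Ptprb, Lyve1, Sema3c and Sema3f. Tek was at 103 CPM at both stages (ratio 0.994, 0.778 to 1.28).

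From P0 to the adult, 4 of the 9 members with enough UMIs passed the rule, where 18.6% of 8290 genes were higher and 3.93% lower in the adult. Flt4 went from 44.6 to 151 CPM (ratio 3.39, 2.77 to 4.19), Nrp1 from 298 to 667 (2.24, 2.06 to 2.43), Kdr from 397 to 828 (2.09, 1.94 to 2.24) and Tek from 103 to 207 (2.01, 1.75 to 2.32). Flt1 and Tie1 did not pass, with ratios of 1.72 and 1.70. Angpt2, with 28 UMIs at P0 and 82 in the adult, met the minimum through the adult alone and did not pass. Flt4 alone passed the rule when the ratios were scaled by the median over genes, when mitochondrial and ribosomal protein genes were left out of the denominator, or when endothelial cells were taken by CD31 tags, and the ratios of Kdr, Nrp1 and Tek then lay between 1.60 and 1.95. Of all genes 11.2%, 13.6% and 17.3% were higher under these 3 settings. Endothelial cells with no UMI of Ptprc or Hbb-bs numbered 220 of 223 at P0 and 423 of 594 in the adult. Erythroid markers summed to 2.87 CPM in P0 ECs, 68.2 in AECs and 58.8 in SECs, and pan-leukocyte markers to 14.3, 2.49 and 1.62 CPM. Without the cells that had such a UMI, Tek no longer passed the rule, and the share of all genes that passed under that setting is not given here. Of the pathway genes 6 of 21 were higher in the adult (Ptprb, Sema3a, Sema3f, Epas1, Dll4 and Foxo1), and Vegfb was lower. Against E16.5, Kdr, Flt1, Nrp1 and Tie1 had enough UMIs at both stages and were higher in adult endothelial cells, with ratios of 2.57 to 4.37, where 38.1% of 7339 genes were higher and 5.26% lower. Vegfa, Vegfc, Angpt2 and Flt4 passed as well, but on 4 to 33 UMIs at E16.5 and so through the adult alone. Tek was at a ratio of 2.00 (1.61 to 2.51), just under the rule. The adult values pool AECs and SECs, which differed from each other.

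Adult SECs and AECs came from the same library. Flt4 was 285 CPM in SECs and 48.6 CPM in AECs (ratio 5.85, 4.78 to 7.21), and Vegfa was 56.1 and 17.0 CPM (3.29, 2.27 to 4.85). These 2 of 9 members were higher in SECs, where 8.15% of 6698 genes were, and Vegfc was the 1 member lower in SECs, where 6.33% were, at 16.7 against 104 CPM (AECs over SECs 6.24, 4.29 to 9.38). Vegfa met the minimum in SECs alone, and Vegfc and Angpt2 in AECs alone. Nrp1 was 1.64-fold higher in AECs (1.51 to 1.77), and Tek was at 213 CPM in SECs and 202 CPM in AECs (ratio 1.05, 0.921 to 1.21). Among the 19 pathway genes with enough UMIs, Nrp2, a co-receptor for VEGFC, Sema3a and Sema3c were higher in SECs, while Pgf, Lyve1 and Nos3 were higher in AECs. Pericyte and smooth muscle markers summed to 716 CPM in SECs and 302 CPM in AECs, and their part in these ratios was not tested.

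**Figure D4:**
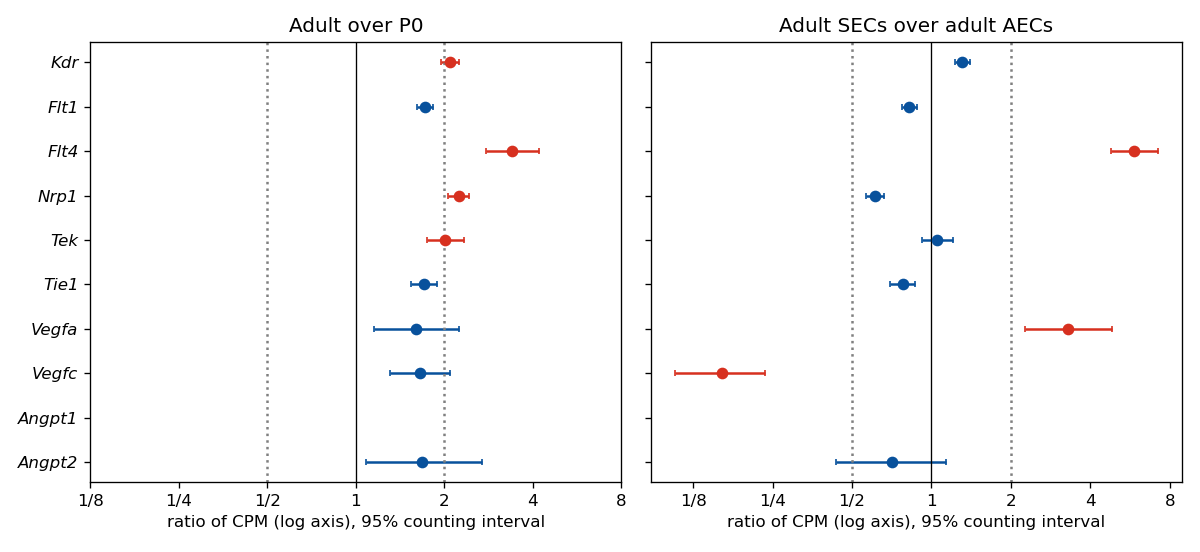
Ratio of CPM for each member (log axis) between adult and P0 endothelial cells and between adult SECs and AECs, with 95% counting intervals. Dotted lines mark 2-fold, red points passed the size rule, and Angpt1 is left out because it had fewer than 50 UMIs. Flt4 lies at 3.39 in the first panel and 5.85 in the second, and Vegfc lies furthest to the left in the second.

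Outside endothelial codes, Nrp1 was widespread, while Flt1 and Tek reached lower levels than in endothelial cells. Clusters whose code is F with a number held 80.3%, 62.4%, 72.8% and 32.2% of the stromal Nrp1 UMIs. Nrp1 was at 102, 95.1, 103 and 61.7 CPM over these F codes. Over all non-endothelial clusters of at least 30 cells it was at 37.6, 30.1, 38.6 and 68.2 CPM. F codes thus lay above that level at E16.5, E18.5 and P0 and below it in the adult. Flt1 was at 21.2 CPM in F4, 64.7 and 34.8 in P2 at E18.5 and P0, and 21.6 in P4, the pericyte and smooth muscle-like clusters, and F4 held 21.3% of the E16.5 UMIs. Tek was at 24.97 CPM in F3 at E16.5, a cluster led by Sult1e1 and Pi16 that held 52.8% of its UMIs, and at 26.8 CPM in adult F8, with 29.1%. Nrp1 was highest in F4 at E16.5 with 220 CPM (206 to 236), above ECs at 153, and in the adult CARs had 496 CPM (471 to 521), which overlapped SECs at 491 and lay below AECs at 804. Kdr was at most 8.14 CPM in any other stromal cluster of at least 30 cells.

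Genes with the most similar pattern over 65 stromal clusters were taken by Pearson correlation of log2(CPM + 1) across clusters, which share libraries and depth. Gimap4, Sh3tc1, Dll4, Aplnr and Tie1 were closest to Kdr, at r = 0.93 to 0.94. For Tek the closest were 2310001H17Rik, Card10, Ctla2a, Gbp9 and Rasip1, at 0.86 to 0.88. Angpt1 (Dact1 first, 0.73) and Vegfa (Slc31a1 first, 0.67) had no such close neighbours.

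Summed over whole HP libraries, Kdr, Flt1, Flt4 and Tek were far below their own levels in endothelial cells. In these sums, in the order E16.5 replicate 1, E16.5 replicate 2, E18.5, P0 and adult, Angpt1 was at 9.59, 21.2, 48.0, 45.5 and 38.5 CPM, and both E16.5 libraries lay below the others. Nrp1 was at 47.4, 24.9, 15.5, 2.57 and 6.42 CPM, in which both E16.5 libraries lay above the others. Tie1 was at 1.00, 0.0522, 3.08, 3.53 and 2.48 CPM. Vegfa was at 9.45, 12.0, 12.5, 11.4 and 14.3 CPM. In the same order, mast-coded cells made up 46.25%, 38.0%, 4.66%, 8.60% and 5.36% of the cells. T-cell codes made up 3.21%, 45.1%, 1.87%, 1.10% and 1.82%, and HSPC codes 5.89%, 3.47%, 11.2%, 24.2% and 10.5%. The part of this mix in the summed levels and in their changes between stages was not tested. Kdr stayed at or below 1.503 CPM, Flt1 at or below 2.28, Tek at or below 1.498 and Flt4 at or below 0.286. In E16.5 replicate 1 a cluster of 29 cells coded UD2 held 12 of 14 Tie1, 4 of 4 Flt4, 9 of 11 Tek, 12 of 29 Flt1 and 10 of 21 Kdr UMIs, for each gene in 1 cell. After thinning to 1000 UMIs, any of the 6 receptors was seen in 4.96%, 2.54%, 4.05%, 1.38% and 1.61% of HP cells (30%, 26.1%, 19.1%, 15.2% and 9.64% without thinning). Nrp1 had the most UMIs of the 6 in every library but P0, with 663, 2382, 1004, 328 and 380, and Tie1 led at P0 with 450. Shares of cells without Nrp1 are not given here.

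The HP sources differed by gene. Angpt1 in the adult was highest in Eos/Bas4 with 197 CPM (176 to 220), MegP2, which had the platelet genes Pf4 and Treml1 among its leading genes, with 177 CPM (164 to 190), and HSPC5 with 132 CPM (123 to 142). At P0 HSPC2 led with 130 CPM (123 to 137), and at E18.5 HSPC2 with 95.9 CPM (89.9 to 102). In E16.5 replicate 2, Eos/Bas1 was at 124.8 CPM (104.6 to 147.8), above that E18.5 value. In every HP library but E16.5 replicate 2, most Nrp1 UMIs lay in cells coded Mono or, at E16.5, Mono/Mast. Mono/Mast was led by genes of resident macrophages (Cbr2, Timd4, Lyve1 and Folr2). The Mono and Mono/Mast codes held 89.7% of the Nrp1 UMIs in E16.5 replicate 1 and 85.5%, 58.2% and 72.1% in the 3 later libraries. In E16.5 replicate 2 they held 17.5% and T-cell-coded cells, 45.1% of that library, held 73.6%. Nrp1 was at 154 and 113 CPM in Mono/Mast of the E16.5 pair, and at 147, 37.5 and 19.9 CPM in the Mono codes of the 3 later libraries, which need not be the same kind of cell.

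Smaller sources stood out by level. Flt1 was at 106 CPM (75.8 to 144) in Mono1iii at E18.5, a cluster led by Ace, Treml4 and Cd300e, genes of patrolling monocytes. Vegfc was at 40.5 CPM (29.8 to 53.9) in DC2 at E18.5, whose leading genes Ctsk, Dcstamp and Ocstamp are those of osteoclasts rather than dendritic cells. Tek in the adult was highest in MegP2 with 9.76 CPM (6.94 to 13.3), and Tie1 at P0 in HSPC2 with 12.7 CPM (10.6 to 15.0).

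Summed HP libraries were tested with edgeR's quasi-likelihood test, in which the lone libraries are assumed to vary like the E16.5 pair. At an adjusted p of 0.05, 0 of 10 members were called at E18.5, P0 or adulthood against E16.5, where 0.00621%, 0.292% and 2.35% of 16114 genes were called (0.168% higher and 0.124% lower at P0, 1.35% higher and 0.993% lower in the adult). Nrp1 at P0 had a log2 change of -3.80 (adjusted p = 0.0901) and Angpt1 a log2 change of 1.53 (adjusted p = 0.518). At an unadjusted p below 0.05 there were 1047, 1368 and 2462 genes, with Angpt1 at all 3 stages, Nrp1 at P0 and in the adult, and Angpt2 in the adult. DESeq2 called Nrp1 at P0 and in the adult, where it called 558 and 1133 of 16114 genes. Without the count filter edgeR called Nrp1 and Tie1 at both, where 713 and 1515 of 19555 genes were called. Without low-depth or stromal codes, UD2 among them, edgeR called Tie1 in the adult, where 260 genes were higher and 225 lower of 15976. Tie1 had 14 and 5 UMIs in the full E16.5 pair, most of the 14 in UD2, against 200, 450 and 147 in the later libraries. Without UD2 it thus entered the test only through the later libraries, where it was higher, and its calls without the count filter also rest on few E16.5 UMIs. Of the pathway list, 0 of 23 tested genes were called at any stage.

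Cells whose code names HSPC (hematopoietic stem and progenitor cells) were summed in the same way, but the E16.5 code may hold a different mix of cells. HSPC1, with 33 and 165 cells in the E16.5 pair, had Cd209a, a dendritic cell gene, among its 10 leading genes in both libraries. Like HSPC2, HSPC4 and HSPC5 of the later libraries, it had none of the 6 HSPC markers among them, while HSPC3 at P0 had Mecom. Of the other leading genes of HSPC1, Stc1 in replicate 1 and Calm4 and Gm32554 in replicate 2 also led HSPC2 at E18.5. Sema3d and Gm32554 in replicate 2 also led adult HSPC5. These lists do not show whether a marker was detected in HSPC1, and its HSPC marker sums are not given here. The 5 dendritic markers summed to 9762 and 3264 CPM in HSPC1, against 90.2 to 192 CPM in HSPC2, HSPC3, HSPC4 and HSPC5 of the later libraries. They include Flt3, a leading gene of HSPC1 in replicate 1, whose protein the study also used to define a multipotent progenitor. Angpt1 was at 26.4, 34.9, 95.9, 96.7 and 132 CPM in these codes, in the library order above, and Nrp1 at 14.4, 24.0, 1.90, 1.24 and 4.77 CPM. Tie1 was at 2.40, 0.312, 7.08, 8.68 and 7.34 CPM. It had 2 and 1 UMIs in the E16.5 pair, too few to pass the count filter without the later libraries, where it was higher. By edgeR, Angpt1 and Tie1 were called higher and Nrp1 lower at E18.5 and P0, and Angpt1 and Tie1 higher in the adult, out of 8 members tested. Over the 12163 genes 3.94%, 5.2% and 7.93% were called at these stages, of which 0.987%, 1.37% and 3.59% were higher and 2.95%, 3.82% and 4.34% lower. The log2 changes of Angpt1 were 1.61, 1.69 and 2.31, with edgeR adjusted p of 0.00310, 0.00114 and 7.71e-07. DESeq2 did not call Tie1 at any stage and called Angpt1 at P0 and in the adult only. It called 231, 303 and 395 of the 12163 genes at the 3 stages. A difference in what the codes hold and a difference between stages cannot be told apart here. Of the pathway genes 0 of 13 were called.

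**Figure D5:**
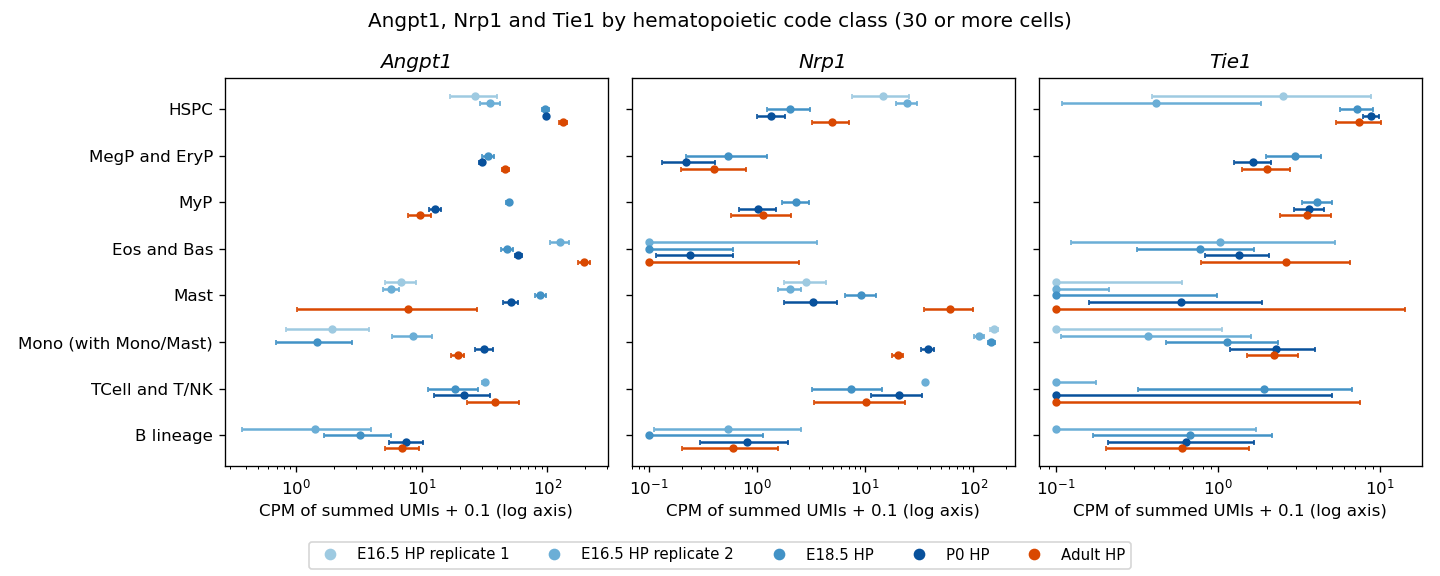
CPM + 0.1 (log axis) of Angpt1, Nrp1 and Tie1 in hematopoietic code classes of at least 30 cells, one colour per HP library, with exact Poisson 95% intervals. Among the classes shown, Nrp1 is highest in Mono/Mast at E16.5, up to 154 CPM, and in Mono codes at E18.5, with 147 CPM, and Tie1 lies below 10 CPM in every class shown (clusters coded UD or Stroma are left out).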

How the data were processed

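The authors deposited raw UMI counts per gene and cell, raw counts of antibody tags, and a table with each cell's library, cluster code and mitochondrial fraction of UMIs. Per the submitters' processing notes these were made with Cell Ranger 3.1.0, R 4.0 and Seurat 3.1.5 on mm10. Cells were used as deposited, with no further doublet call, and 0 columns of other samples were found. The 10 members, the 29 pathway genes and the marker lists were chosen with earlier results of these data known, and all members are named. Stages with 1 library were compared by CPM ratios (at least 2-fold, 50 UMIs in the higher group) with no test. HP sums were tested with edgeR 4.0.16 (filterByExpr, TMM, quasi-likelihood test with 1 residual degree of freedom, Benjamini-Hochberg adjusted p of 0.05) in R 4.3.3, with DESeq2 1.42.0 as an alternative. A run on simulated data used lower dispersions than the 0.196 fitted to the summed HP libraries, so it does not show how the test performs on them. Shares of HP cells used cells thinned to 1000 UMIs. Other steps used Python 3.11.15 and scipy 1.17.1. Gene positions are from GENCODE (GRCm38), and 8 of 10 members matched a RefSeq promoter entry. GGAA was searched in the Vegfa window after ACGTG and GCGTG had given 0 matches there. CD31-based cells, median scaling, ratios without cells that had a Ptprc or Hbb-bs UMI, and leaving out low-depth HP codes were alternatives chosen after seeing the data.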

Additional observations from a re-analysis of the deposited data

Results flagged for a closer look

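Some members moved in opposite directions in the stromal and the HP libraries, and the difference was not tested. Angpt1 at E18.5 over E16.5 had a ratio of 0.710 in stroma, against 5.01 and 2.27 over the HP replicates. Nrp1 at P0 over E16.5 had a ratio of only 1.09 (1.05 to 1.13) in stroma, against 0.0542 and 0.104 in HPs. Nrp1 in the adult over E16.5 had a ratio of 2.50 in stroma, against 0.135 and 0.258 in HPs.

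Endothelial receptors were also read in stromal cells that had at least 30 CD31 tags but no endothelial code. Kdr, Flt1, Flt4, Tek and Tie1 summed to 43.0 CPM (21.5 to 77.0) in 15 such cells at E18.5, 49.5 CPM (38.3 to 62.9) in 84 cells at P0 and 135 CPM (124 to 148) in 193 adult cells, of which 78 were coded F8. The remaining stromal cells without an endothelial code had 4.65, 5.52 and 6.12 CPM. At E16.5, 36 such cells had 11.6 CPM (4.24 to 25.2), an interval that includes the 4.67 CPM of the remaining cells.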

How the results depend on the processing

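No paired analysis was possible because the groups compared share fewer than 2 replicate numbers. Receptors were highest in the same codes when per-cell CPM was averaged or cells under 1000 UMIs were left out. The endothelial share of the 6 receptors became 17.3%, 42.1%, 34.7% and 77.7% from per-cell CPM, 31.4% (P0) and 68.4% (adult) with marker-based cells, and 64.1% (adult) with CD31-based cells. Members higher at E18.5 than at E16.5 numbered 1 at 3-fold, where 2.14% of genes were higher, and 5 with CD31-based cells (9.39%). At P0 they numbered 2 with 20 UMIs as the minimum (13.2% of genes) and 2 without cells that had a Ptprc or Hbb-bs UMI (12.0%). In the adult against P0 there was 1, Flt4, at 3-fold (7.48% of genes) and with median scaling (11.2%). Flt4 was also the 1 member without mitochondrial and ribosomal protein genes (13.6%) and with CD31-based cells (17.3%). Any receptor was seen in 12.3%, 4.92%, 7.16%, 2.73% and 2.90% of HP cells at 2000 UMIs and in 30%, 26.1%, 19.1%, 15.2% and 9.64% without thinning. For summed HPs at E18.5, P0 and adult, DESeq2 called 342, 558 and 1133 of 16114 genes (0, 1 and 1 members). No filter gave 485, 713 and 1515 of 19555 (0, 2 and 2), and RLE factors 35, 78 and 425 of 16114. Leaving out low-depth codes gave 43, 91 and 485 of 15976, with Tie1, on few E16.5 UMIs, the 1 member called in the adult. For HSPC codes DESeq2 called 231, 303 and 395 of 12163 genes, with 1, 2 and 1 members. Signs turned for Kdr with DESeq2 (-0.026 at E18.5 and -0.031 in the adult) and without low-depth codes (0.38 at P0), for Flt4 without low-depth codes (1.02 at E18.5) and with DESeq2 (-0.35 at P0), and for Flt1 in the adult without low-depth codes (0.36) and without cells under 1000 UMIs (0.0047). None of these was called, and the cause was not tested. Without either E16.5 library no residual degree of freedom remained. Against either E16.5 library alone, Angpt1, Angpt2, Nrp1, Tek and Tie1 kept their direction over all HPs, while Vegfc, Kdr and Flt4 turned at all 3 later stages, Vegfa at E18.5 and P0, and Flt1 at P0 and in the adult (log2 ratios of -0.81 to 1.13). In HSPC codes Flt1 turned at all 3 (-2.32 to 1.67) and Angpt2 at E18.5 (-0.011 to 0.68). Fetal ligands in ECs rest on few UMIs, which limits their ratios.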
